A study of Mus musculus with 12 samples.

Results

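The genes examined here are 10 genes of natural killer (NK) cells and cytotoxic lymphocytes: Gzma, Gzmb, Prf1, Nkg7, Ncr1, Klrb1c, Klrd1, Klrk1, Eomes and Tbx21. They were chosen by gene symbol, with earlier results of these data known, as were the other gene lists used below. Shares over all genes that stand beside their counts are thus a description and not a test of these lists. The members are 10 of the 24982 genes listed in each library, and all 10 were found and tested. RNA was taken from B lymphocytes of the spleens of mice at 6 weeks of age and sequenced after selection for polyadenylated molecules. WT mice (C57BL/J6) were the controls. Eμ-Myc mice carried the Eμ-Myc transgene, in which an immunoglobulin heavy-chain enhancer drives Myc in the B lineage. Mice of the third genotype, Eμ-Myc; PRPS2 KO, carried the same transgene and lacked PRPS2, an enzyme that makes phosphoribosyl pyrophosphate for nucleotide synthesis; they are called the knockout group here. Each group had 4 libraries, which the labels call biological replicates. How the B cells were isolated and the sex of the mice are not given in the sources used here.

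NK cells are innate lymphocytes that kill infected or transformed cells without prior priming. They release granules that hold perforin, which opens the target cell membrane, and granzymes, proteases that enter through it and start cell death. Activating and inhibitory receptors set the balance, and the T-box factors Eomes and T-bet (the product of Tbx21) direct NK cell development; cytotoxic T cells use much of the same machinery. In the spleen NK cells live beside far more numerous B cells and T cells, and B cells are not known to express most of these genes.

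Each value is the mean coverage of a gene, divided here by a scaling factor per library and called scaled coverage. Mean coverage is a per-length quantity, and levels of different genes are compared on that scale. Its median was 46.4, 51, 32.3 and 22.5 over 4 equal bins from the shortest to the longest transcripts, so it was not level over length. Summed over all genes, coverage was between 1277305.5 and 1885768.9 in each library, but no read depth can be read from it. Prps2 was at 97.9 to 140 in WT, 199 to 287 in Eμ-Myc and 16.2 to 18.3 in the knockout libraries. Myc was at 226 to 346 in WT, 1559 to 2302 in Eμ-Myc and 1099, 1718, 3017 and 3282 in knockout libraries 1 to 4. Both genes follow the labels, but Myc also differed between the knockout libraries. It was below every Eμ-Myc library in knockout library 1 and above every Eμ-Myc library in knockout libraries 3 and 4. The B cell markers Cd79a and Ms4a1 were at 399 or more in all 12 libraries. The knockout libraries did not form 1 cluster. Differences were taken over the genes with coverage above 1 before scaling in both libraries compared. Libraries 1 and 2 differed by a root mean square of 0.33 on the log2 scale and libraries 3 and 4 by 0.21. Libraries of different pairs differed by 0.97 to 1.16. Within each group no library was a copy of another, as at most 2.45% of values above 1 were equal in a pair. Pairs from different groups were not compared in this way.

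RefSeq (GRCm38.p6, the assembly of the mm10 build) places the 10 genes on 7 chromosomes. Ncr1 (chr7:4337715-4345184) and Nkg7 (chr7:43437138-43438246) share chromosome 7, and Klrb1c (chr6:128778485-128788641), Klrd1 (chr6:129588092-129598775) and Klrk1 (chr6:129610323-129623903) lie in the NK gene complex on chromosome 6. The others are Gzma (chr13:113093824-113100981), Gzmb (chr14:56258836-56262334), Prf1 (chr10:61297751-61304684), Eomes (chr9:118478186-118486132) and Tbx21 (chr11:97098007-97115331). The promoters of 3 members are shown as the 250 bases before the RefSeq start, 5′ to 3′ on the gene's strand. Capitals mark matches to TGTGGT (a Runx core, ACCACA on the other strand), GGTGTGA (a T-box element) and TTCNNNGAA (a Stat5 element).
Gzmb (chr14:56262335-56262584, minus strand): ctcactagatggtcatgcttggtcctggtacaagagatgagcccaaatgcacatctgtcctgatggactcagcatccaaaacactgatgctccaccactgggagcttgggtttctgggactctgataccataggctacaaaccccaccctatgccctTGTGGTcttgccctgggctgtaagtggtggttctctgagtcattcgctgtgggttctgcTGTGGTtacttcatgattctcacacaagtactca
Nkg7 (chr7:43436888-43437137, plus strand): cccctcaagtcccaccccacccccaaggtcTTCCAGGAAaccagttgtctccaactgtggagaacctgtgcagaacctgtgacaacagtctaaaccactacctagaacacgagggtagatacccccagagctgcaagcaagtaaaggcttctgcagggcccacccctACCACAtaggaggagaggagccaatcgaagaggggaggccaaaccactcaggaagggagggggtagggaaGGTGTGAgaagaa
Ncr1 (chr7:4337465-4337714, plus strand): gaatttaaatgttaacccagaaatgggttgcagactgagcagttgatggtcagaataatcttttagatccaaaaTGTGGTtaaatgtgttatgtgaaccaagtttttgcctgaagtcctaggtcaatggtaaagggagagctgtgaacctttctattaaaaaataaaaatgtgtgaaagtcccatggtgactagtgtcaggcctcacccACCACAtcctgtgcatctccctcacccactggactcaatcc
These 3 windows carry 2, 1 and 2 matches to the Runx letters, and Nkg7 also holds the T-box and the Stat5 letters. They hold more matches than the members' windows not shown, and those of Eomes and Tbx21 hold 0 matches to any of these letters. Whether the promoters bear on the levels of these genes was not tested.

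The letters of 4 motifs were searched on both strands in windows of 300 bases, 250 before and 50 after the start, which were at hand for 9 members. TGTGGT was found in 7 of the 9 (Gzma, Gzmb, Prf1, Nkg7, Ncr1, Klrb1c and Klrk1), and 16.8% of all 32851 promoter windows held it. GGTGTGA was found in 1 of 9 (Nkg7; 3.98% of all windows), TTCNNNGAA in 2 of 9 (Gzmb and Nkg7; 8.3%), and CACGTG, the E-box to which Myc binds, in 0 of 9 (7.15%). No motif overlapped another in these windows. A match is a run of letters and not evidence of binding.

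All 10 genes fell in Eμ-Myc against WT by limma's test (10 of 10 called lower, where 24.7% of the 12723 genes tested were), and for each of them every Eμ-Myc library lay below every WT library (22.8% of the genes tested). Mean scaled coverage in Eμ-Myc was 14.8% (Eomes) to 27.3% (Klrk1) of that in WT. The knockout group spread over both levels: libraries 1 and 2 lay above every Eμ-Myc library for all 10 genes, and libraries 3 and 4 lay below every Eμ-Myc library for all 10. In bulk RNA, fewer cells of a type and less RNA per cell cannot be told apart, and these libraries were labelled as B cells. The plot of scaled coverage by library shows this for each gene.

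**Figure D1:**
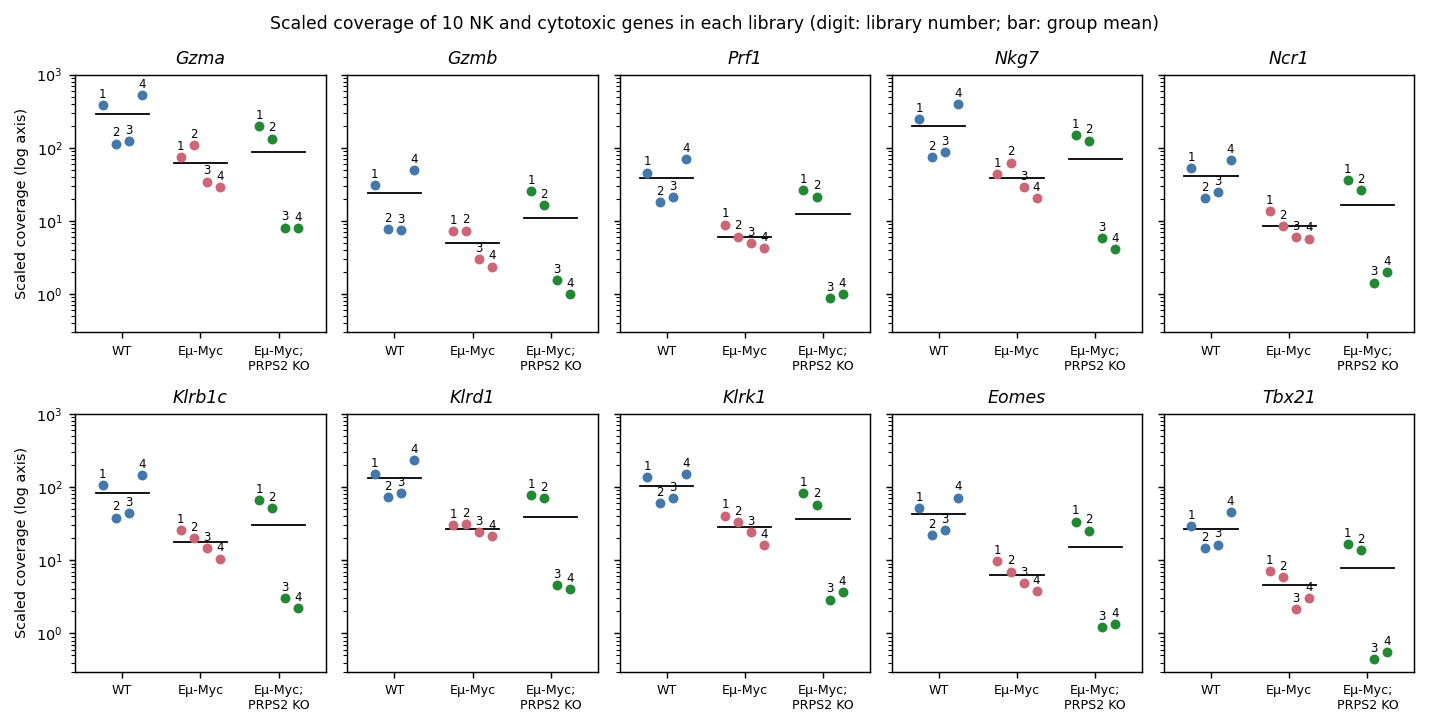
Scaled coverage (log axis) of the 10 genes in each of 12 libraries, by genotype; points are libraries with their number, and the bar is the mean of 4. WT libraries sit above Eμ-Myc libraries in every panel, and knockout libraries 1 and 2 sit above the Eμ-Myc points while 3 and 4 sit below them.

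Of the granule genes among the members, Gzma and Nkg7 were the most abundant. Gzma, which encodes granzyme A, was at 378, 114, 124 and 522 in WT libraries 1 to 4, at 74.3, 109, 34.4 and 29.2 in Eμ-Myc, and at 198, 133, 8.10 and 7.88 in the knockout group. WT libraries 1 and 4 were the highest of all and knockout libraries 3 and 4 the lowest, and the gap between WT and Eμ-Myc was narrow, from 114 to 109. Means (± SD, n = 4) were 284 ± 200 for WT, 61.7 ± 37.4 for Eμ-Myc and 86.6 ± 94.6 for the knockout libraries, and in Eμ-Myc Gzma fell by 2.09 on the log2 scale (SE 0.59, limma adjusted p = 0.0156). Nkg7, a granule membrane protein needed for degranulation, was at 245, 74.1, 86.1 and 391 in WT, at 43.1, 62.7, 28.7 and 20.6 in Eμ-Myc, and at 147, 125, 5.88 and 4.10 in the knockout group. WT and Eμ-Myc did not overlap, and again WT 1 and 4 stood above WT 2 and 3. Nkg7 fell by 2.13 (SE 0.56, limma adjusted p = 0.0112).

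Prf1, the gene of perforin, was at 45.7, 18.1, 21.0 and 69.8 in WT, at 8.89, 6.10, 4.93 and 4.28 in Eμ-Myc, and at 26.4, 21.5, 0.888 and 0.998 in the knockout group. The lowest WT library was well above the highest Eμ-Myc library, and the fall was 2.41 (SE 0.42, limma adjusted p = 0.00130). Gzmb, which encodes granzyme B, the granzyme that cleaves caspases, was the weakest case: 31.1, 7.78, 7.53 and 49.1 in WT, 7.19, 7.37, 2.98 and 2.37 in Eμ-Myc, and 25.3, 16.3, 1.55 and 0.998 in the knockout group. WT 2 and 3 lay just above Eμ-Myc 1 and 2, and the groups were separated only by the gap from 7.37 to 7.53. Gzmb fell by 1.86 (SE 0.65, limma adjusted p = 0.0368), and this call was lost in 6 of 17 alternatives, among them the removal of WT 1 (adjusted p = 0.0769), WT 4 (0.0784), Eμ-Myc 3 (0.0959) or Eμ-Myc 4 (0.104). Gzma lost its call without Eμ-Myc 4 (adjusted p = 0.0533).

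For the 4 receptor genes WT libraries 1 and 4 were again the highest. Ncr1 encodes NKp46, an activating receptor that marks NK cells in all mouse strains; it was at 52.5, 20.7, 24.5 and 68.1 in WT, at 13.7, 8.46, 6.06 and 5.75 in Eμ-Myc, and at 35.7, 26.3, 1.44 and 2.00 in the knockout group. The groups WT and Eμ-Myc were apart, and the fall was 2.13 (SE 0.42, limma adjusted p = 0.00238). Klrb1c, the gene of the NK1.1 antigen of C57BL mice, was at 106, 38.2, 43.9 and 147 in WT, at 25.9, 20.2, 14.5 and 10.5 in Eμ-Myc, and at 66.7, 50.9, 3.00 and 2.22 in the knockout group. It fell by 2.06 (SE 0.46, limma adjusted p = 0.00499), with no overlap.

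Klrd1 encodes CD94, the partner chain of the NKG2 receptors that read Qa-1 on other cells. Its values were 149, 72.7, 82.8 and 231 in WT, 30.2, 30.9, 24.0 and 21.6 in Eμ-Myc, and 78.2, 70.2, 4.55 and 3.99 in the knockout group. The Eμ-Myc libraries were the tightest of any member, with a highest value 1.43 times the lowest, and the fall was 2.16 (SE 0.34, limma adjusted p = 7.82e-04). Klrk1 encodes NKG2D, the activating receptor for stress-induced ligands, and was at 137, 60.6, 70.4 and 149 in WT, at 40.7, 32.9, 24.2 and 16.1 in Eμ-Myc, and at 81.8, 57.7, 2.89 and 3.66 in the knockout group. It had the smallest fall, 1.83 (SE 0.37, limma adjusted p = 0.00289). Klrb1c and Klrd1 have close relatives in the same gene cluster, as the granzymes do elsewhere, and how reads shared with relatives were counted is not given in the sources used here, so their values are uncertain to that extent.

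Eomes and Tbx21 encode the T-box factors. Eomes was at 51.0, 22.0, 26.1 and 71.8 in WT, at 9.65, 7.01, 4.83 and 3.83 in Eμ-Myc, and at 33.6, 25.4, 1.22 and 1.33 in the knockout group. Its fall of 2.58 (SE 0.41, limma adjusted p = 6.92e-04) was the largest of the 10, and WT and Eμ-Myc were well apart. Tbx21 was at 29.5, 14.6, 16.3 and 45.2 in WT, at 7.09, 5.91, 2.16 and 3.04 in Eμ-Myc, and at 16.7, 13.8, 0.444 and 0.555 in the knockout group. It fell by 2.39 (SE 0.44, limma adjusted p = 0.00154), also without overlap.

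Over all genes tested in Eμ-Myc against WT, 55.1% were called in either direction, so a call was common in this comparison. The median log2 fold change of the members was -2.13, against -0.01 over all genes tested, and 1.28% of all genes were at or below the members' median. When all 12 libraries entered the same limma fit, so that the knockout libraries' spread was shared, only Eomes among the 10 was still called (adjusted p = 0.0425), and 16.3% of all genes were called lower in that fit. The other 9 then had adjusted p-values from 0.0534 to 0.128, with the same fold changes. The p-values measure the spread between these libraries.

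In WT the mean levels ran, from high to low, Gzma, Nkg7, Klrd1, Klrk1, Klrb1c, Eomes, Ncr1, Prf1, Tbx21 and Gzmb, from 284 to 23.9 in scaled coverage. Each step between neighbours in that order was smaller than the SD of the higher gene over the 4 WT libraries. Gzma was the highest of the 10 in 12 of 12 libraries, Nkg7 was next in 11, and Tbx21 or Gzmb was the lowest in 12. Gzma made up 23.4% to 37.5% of the summed scaled coverage of the members, and Nkg7 14.8% to 23.1%.

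The genes also kept close to a common profile. Each gene's log2 values were centred on its own mean, and the deviation from the mean profile of the 10 was taken in each library. The root mean square deviation was lowest for Klrb1c at 0.12 and highest for Gzmb at 0.46. Gzmb was above the common profile by 0.92 in knockout library 3 and below it by 0.64 and 0.85 in WT libraries 2 and 3 (values of -0.64 and -0.85). Eμ-Myc library 2 differed in composition from the rest: Gzma stood at 0.73 and Nkg7 at 0.47, while Prf1 was at -0.48, Eomes at -0.47 and Ncr1 at -0.39. In that library Gzma was 12.9 times Ncr1 in scaled coverage, against 3.94 to 7.66 times in the other 11.

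**Figure D2:**
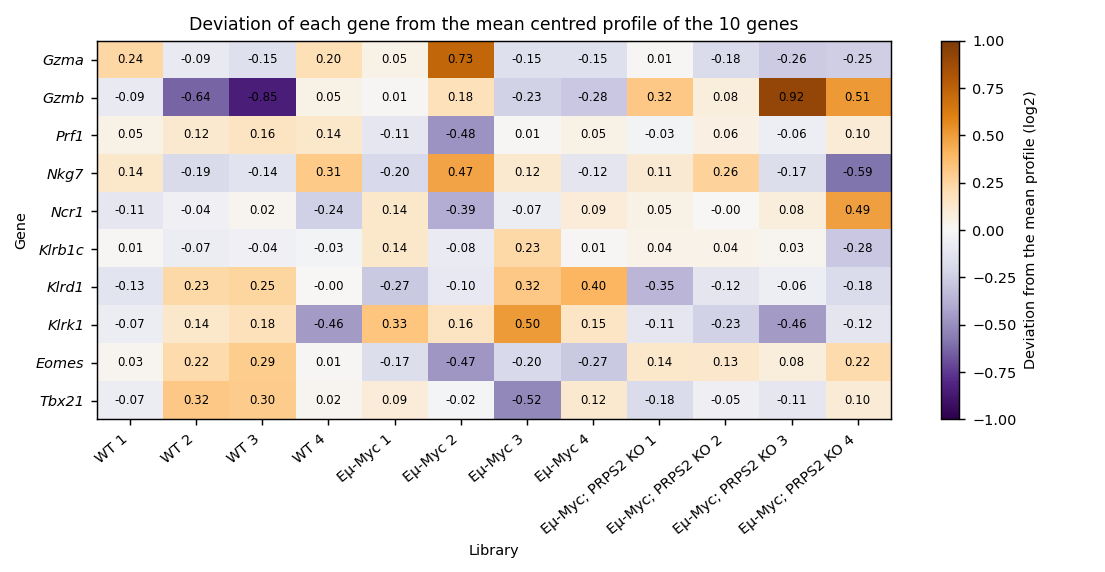
Deviation of each gene (rows) from the mean centred log2 profile of the 10 genes in each library (columns), on the log2 scale. Most cells are near 0, and Gzmb in knockout library 3 (0.92), Gzmb in WT library 3 (-0.85) and Gzma in Eμ-Myc library 2 (0.73) stand out.

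Setting the knockout libraries against those of Eμ-Myc addressed the effect of PRPS2 loss on the Myc background. None of the 10 genes was called by limma, and 0 had an unadjusted p under 0.05. Of 12551 genes tested, 0.00797% were called, a share made up of Prps2, and 121 reached an unadjusted p under 0.05. With library quality weights, which gave knockout libraries 1 and 2 weights of 0.0817 and 0.129, all 10 were called lower. They were then at -2.55 to -1.14, and 28.3% of all genes were called lower. The log2 fold changes ran from -0.77 for Klrk1 (95% interval -3.24 to 1.71) to 0.29 for Gzmb (-1.92 to 2.50), with a median of -0.30 against -0.03 over all genes. The intervals were wide: the median SE of the members was 1.04, against 0.23 over all genes. A change of several fold in either direction lay inside every member's interval.

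Sign and size depended on how the 4 knockout libraries were averaged. On the linear scale the knockout mean was above the Eμ-Myc mean for all 10 genes, for example 12.4 ± 13.4 against 6.05 ± 2.04 (SD, n = 4) for Prf1, whereas the log2 fold change was below 0 for 8 of the 10. The highest knockout library was 19.6 (Klrd1) to 37.5 (Tbx21) times the lowest, compared with 1.43 to 3.73 times within Eμ-Myc and 2.46 to 6.52 times within WT. Without knockout library 3 the log2 fold change of Ncr1 was 0.66, and without knockout library 1 it was -0.75. Among the members only Klrk1 kept its sign whichever library was left out, between -1.55 and -0.02.

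**Figure D3:**
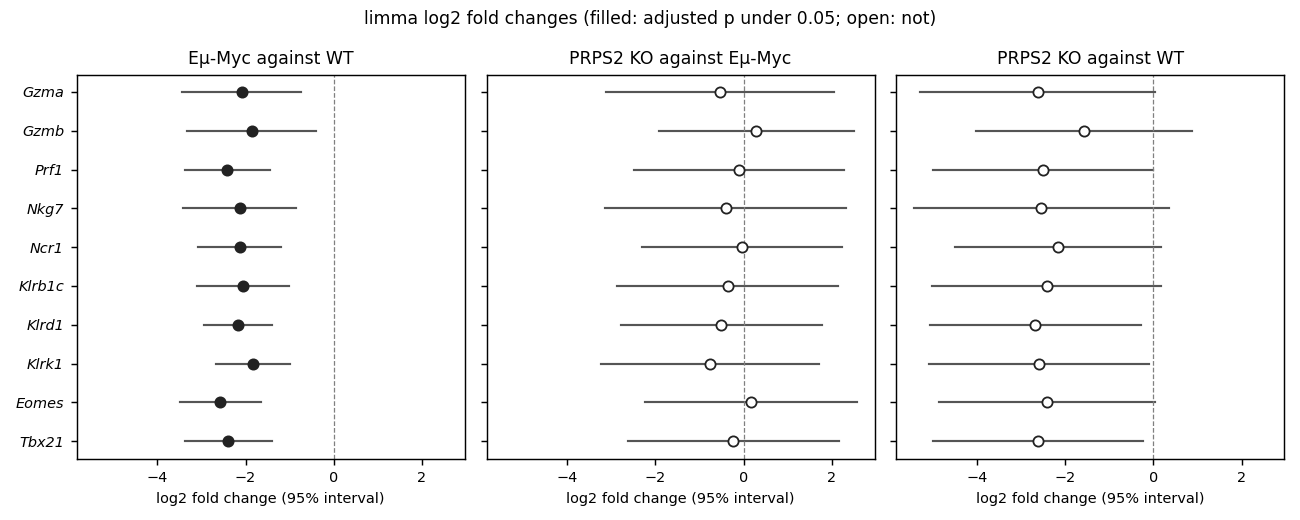
limma log2 fold change (point) and 95% interval (line) of the 10 genes in the 3 comparisons of genotypes; filled points have an adjusted p under 0.05 over all genes tested. All points of Eμ-Myc against WT are filled and lie between -2.58 and -1.83, and all points of the comparisons with the knockout group are open with wide intervals.

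Against WT, the knockout group had log2 fold changes below 0 for all 10 genes, from -2.68 for Klrd1 (SE 1.04) to -1.57 for Gzmb (SE 1.07), and 0 passed the limma test. Of 12692 genes, 29.3% were called in either direction, 9.60% were called lower and 14.8% were lower without overlap; the members' counts were 0 of 10 called and 0 of 10 without overlap. The members' median was -2.53, against -0.01 over all genes, and adjusted p-values ran from 0.0760 (Klrd1) to 0.249 (Gzmb). Unadjusted p was under 0.05 for 4 members, namely Klrd1, Tbx21, Klrk1 and Prf1. For 7 of the genes knockout libraries 1 and 2 lay within the range of the WT libraries, and for Klrd1, Klrk1 and Tbx21 only 1 of them did, while libraries 3 and 4 lay below all WT libraries for all 10. Without knockout library 1, 9 of the 10 were called (Klrd1 at -3.36, adjusted p = 0.0254), and without knockout library 2, 2 were; the shares of all genes called lower were then 23.5% and 13.4%. This comparison shares its WT libraries with the first comparison and its knockout libraries with the second.

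Markers of other cell types moved in the same libraries as the NK genes. The summed scaled coverage of the 10 NK and cytotoxic genes was 1225, 443, 502 and 1744 in WT libraries 1 to 4, 261, 290, 147 and 117 in Eμ-Myc, and 710, 539, 29.97 and 27.74 in the knockout group. The sum of 14 T cell markers was 1343, 699, 924 and 4280 in WT, 210, 171, 206 and 147 in Eμ-Myc, and 867, 1010, 39.6 and 36.1 in the knockout group. Both sums were thus highest in WT 4 and lowest in knockout libraries 3 and 4, and knockout libraries 1 and 2 exceeded all Eμ-Myc libraries in both. All 14 T cell markers fell in Eμ-Myc against WT, where 24.7% of all genes were called lower, with a median of -3.01; Cd3e, a chain of the T cell receptor complex, fell by 3.19 (limma adjusted p = 0.00116) and Cd8b1, of the CD8 coreceptor, was at -3.50 (3.28e-04), while Cd4 was at -2.77. In knockout libraries 3 and 4, 1 of the 14 T cell markers was listed at 0 and the rest were above 0. The part of these cells in the results on NK genes was not tested.

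The NK genes and the T cell markers did not keep a fixed ratio. The members' sum was 0.407 times the T cell sum in WT 4 and 0.912 times in WT 1, although both were high in NK genes. It was 1.24 and 1.69 times the T cell sum in Eμ-Myc libraries 1 and 2, the only libraries in which it was larger, and 0.534 to 0.818 times in the knockout group.

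Counts for markers of the remaining cell types stand beside the 24.7% of all genes called lower. Markers of innate lymphoid and NKT cells ranged over 67.1 to 514 in WT, 25.6 to 34.6 in Eμ-Myc and 7.77 to 142 in the knockout group, and 4 of the 4 tested that did not pass the filter through WT alone fell in Eμ-Myc. The 13 macrophage, monocyte and dendritic markers ranged over 3370 to 6932, 1377 to 4179 and 569 to 4143, and 4 of 13 fell, near that share, but 7 were lower with the replicate block, where 25.8% of all genes were, and 6 with total coverage scaling, where 33.3% were; Siglech, a marker of plasmacytoid dendritic cells, was at -2.11. The 10 neutrophil markers ranged over 6730 to 31154, 6175 to 19724 and 1113 to 17703, with 0 of 10 called by limma and 0 at an unadjusted p under 0.05, but 2 were called higher without WT 1 and 1 lower with the replicate block. Of 5 plasma cell markers, 1 was higher and 1 lower in Eμ-Myc, and the lower call was lost without Eμ-Myc 1, 3 or 4 or WT 1 or 2. The sum of 10 B cell markers was 8604 to 16558 in WT, 8421 to 10453 in Eμ-Myc and 7536 to 9073 in the knockout group, and WT 2 and 3, the lower WT libraries for NK genes, were the highest for B cell markers. Of these, 3 of 10 fell (Fcer2a, Cr2 and Cd22), also near the share over all genes, while Cd79a was at -0.04 and Ms4a1 at -0.26, both not called. With all 12 libraries in the same fit, the share of all genes called lower was 16.3%. In that fit 1 of 5 innate lymphoid and NKT markers and 0 of 13 macrophage, monocyte and dendritic markers were lower. Of the 10 B cell markers 1 was lower, and of the 5 plasma cell markers 0 were lower and 0 higher.

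Some B lineage genes separated the knockout libraries in the same way as the NK genes. Fcer2a, the low-affinity IgE receptor CD23 of mature B cells, was at 1011, 836, 3.66 and 2.66 in knockout libraries 1 to 4. Cr2, a complement receptor of mature B cells, was at 66.0, 61.9, 0.111 and 0.333. Both were thus far lower in libraries 3 and 4, while Pax5, a B lineage transcription factor, was at 143, 153, 152 and 157. The 5 plasma cell markers did not move together. Jchain, the joining chain of secreted IgM and IgA, was at 184, 234, 2.00 and 2.44, Tnfrsf17 at 3.35, 3.11, 0.333 and 0.111, and Xbp1 at 185, 213, 91.1 and 93.2. Sdc1, by contrast, was at 6.80, 7.78, 12.3 and 10.1, and Irf4 at 113, 136, 139 and 168, both higher in libraries 3 and 4 than in 1 and 2.

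**Figure D4:**
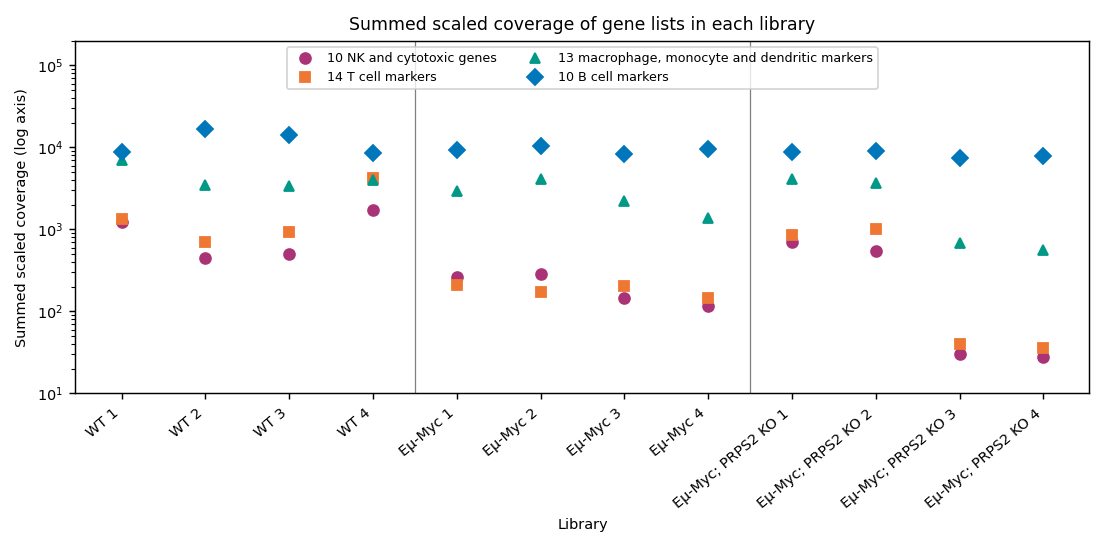
Summed scaled coverage (log axis) of the 10 NK and cytotoxic genes and of 3 lists of markers of other cell types in each of 12 libraries; vertical lines separate WT, Eμ-Myc and the knockout group. NK genes and T cell markers span from 27.74 to 1744 and from 36.1 to 4280, whereas the summed B cell markers span from 7536 to 16558, although Fcer2a and Cr2 of that list are far lower in knockout libraries 3 and 4 than in 1 and 2.

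Genes that work with the members were examined from lists of the same biology, and counts below are for Eμ-Myc against WT. Of 12 tested genes of granule proteins and exocytosis, 9 were called lower and 0 higher, beside 24.7% of all genes called lower. Serpinb9b, 1 of the 9, was below 1 in every Eμ-Myc library and passed the filter on low values only through WT, so 8 of the other 11 fell. Ctsw, a cathepsin of cytotoxic cells, fell by 2.31 (limma adjusted p = 0.00399), and lower values also held for Gzmm at -1.85 (0.00173), Serpinb9, an inhibitor of granzyme B, at -1.35 (2.78e-04), and Unc13d, which primes granules for release, at -1.08 (1.82e-04). Gzmd, Gzme, Gzmf, Gzmg and Gzmn were listed at 0 in all 12 libraries, as was Vamp7 of the same list. Whether a 0 means no expression cannot be read from these values.

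Of 30 other NK receptor genes, 25 fell and 1 rose, with a median of -1.88, beside 24.7% of all genes called lower. Cd226, an activating receptor for Pvr and Nectin2, fell by 2.35 (limma adjusted p = 0.00106), Klri2 was at -2.21 (0.00133) and Klra1 at -1.61 (0.00117). Slamf7, a receptor that B lineage cells can also express, was the exception. Its values were 67.8, 75.5, 89.3 and 56.0 in WT, 177, 133, 160 and 206 in Eμ-Myc, and 131, 141, 208 and 213 in the knockout group. It rose by 1.22 in Eμ-Myc (SE 0.17, limma adjusted p = 2.99e-04) and by 1.24 in the knockout libraries relative to WT (adjusted p = 0.0119), and neither group overlapped WT. The Klra, Klrb1 and Klrc genes are families of close relatives, so reads may be split among them and the count of 25 does not stand for 25 independent genes.

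The counts of the next 3 lists also stand beside 24.7% of all genes called lower. Of 15 adaptor and signalling genes 12 fell, with a median of -1.99. The leading ones are shared with T cells: Sh2d2a fell by 2.35 (limma adjusted p = 2.27e-04), the kinase gene Lck was at -2.57 (9.95e-04), and Lat, the T cell receptor scaffold, was at -3.12 (0.00167). Of 9 further NK transcription factor genes 7 fell, with a median of -1.08, led by Stat4 at -2.55 (limma adjusted p = 1.24e-04), which relays interleukin 12 signals, and Runx3 at -1.06 (1.25e-04). Prdm1 was at -1.08 and Ets1 at -0.73, both called. Of 22 cytokine, chemokine and receptor genes 16 fell, with a median of -1.79. They included Il21r at -2.32 (limma adjusted p = 5.83e-06), Tnf at -1.88 (6.20e-05), the common gamma chain gene Il2rg at -1.16 (3.19e-04) and Cxcr3 at -2.21 (4.67e-04).

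Of 10 tested ligands that NK receptors read on target cells, 4 fell, beside 24.7% of all genes. Clec2i and Clec2d, ligands of receptors of the Klrb1 family, fell by 1.57 (limma adjusted p = 5.52e-05) and 1.15 (0.00108). Raet1e, a ligand of NKG2D, was at 0.392, 0.844, 0.847 and 0.224 in WT, 3.31, 2.82, 5.03 and 4.51 in Eμ-Myc, and 1.52, 2.28, 3.00 and 4.22 in the knockout group. All libraries with the transgene lay above all WT libraries. Raet1c was at 0.112 to 0.471 in WT and 1.18 to 1.64 in Eμ-Myc. Both Raet1 genes were below 1 in every WT library and passed the filter on low values only through the Eμ-Myc libraries, so their 2 higher calls are not counted as support, and they were not tested when any of the 4 Eμ-Myc libraries was left out or with a filter of 5. Both are low and belong to a family of close copies, so the member to which their reads belong is uncertain. Without Eμ-Myc library 2, 2 of 7 ligands tested were called higher, neither of them Raet1e or Raet1c. With the replicate block 3 of 10 were called higher, but Raet1e and Raet1c were among them and are again not counted as support. In these fits 54.7% and 56.5% of all genes were called in either direction, and 24.4% and 25.8% were called lower.

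With all 12 libraries in the same fit, the counts called lower were 4 of 12 granule genes, 3 of 30 receptors, 7 of 15 adaptors, 3 of 9 transcription factors, 3 of 22 cytokine genes and 5 of 14 T cell markers, beside 16.3% of all genes. The receptor and cytokine counts were below the share over all genes. In the knockout group against Eμ-Myc, 0 genes of any of these lists were called by limma, where 0.00797% of all genes were. Against WT the knockout group had 3 of 12 granule genes lower, 1 of 31 other receptors lower (Klrg1 at -2.62, limma adjusted p = 0.0447) and 1 higher (Slamf7), 1 of 22 cytokine genes lower (Il21r at -3.27, adjusted p = 0.0468), and 3 of 8 ligands lower, beside 9.60% of all genes. The 2 ligands called higher were Raet1e, which passed the filter only through the knockout libraries, and Ulbp1. With all 12 libraries in the same fit, 7 of 12 granule genes, 12 of 31 other receptors and 7 of 22 cytokine genes were lower. So were 3 of 8 ligands, where 19.9% of all genes were, and 1 ligand was higher. In that fit 7 of 15 adaptors, 3 of 9 transcription factors and 12 of 14 T cell markers were also lower, against 0 of each in the main fit. The counts also changed when single libraries were left out. Without knockout library 3 or any of WT 1 to 4, 0 granule genes, 0 other receptors and 0 cytokine genes were called lower. The same held without knockout library 4. Few genes of any kind were called lower in these fits, from 31 of 12576 without WT 2 to 238 of 12550 without WT 4. These zeros are thus near the share over all genes. Without knockout library 1 the counts of granule, other receptor and cytokine genes were 7, 18 and 12, where 23.5% of all genes were called lower. Without knockout library 2 they were 3, 4 and 7, where 13.4% were. The lower ligand calls ranged from 0 to 3 over these removals, and 1 of the other receptors was called higher in each. Lower calls ranged from 0 to 10 for adaptors, 0 to 5 for transcription factors and 0 to 12 for T cell markers. Ulbp1, a ligand of NKG2D, was at 1.09 (adjusted p = 0.0298), but its adjusted p was 0.0423 without WT 4, 0.0247 and 0.0476 without knockout 1 and 2, and 0.0577 to 0.0819 without any other library.

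Among 12305 other genes, likeness to the members was measured as the root mean square difference between a gene's centred log2 profile and the members' mean profile over the 12 libraries. Among the 10 most alike were Klre1 (0.18), Klrc1 (0.19), Il18r1 (0.20), Ctsw (0.20), Klra18 (0.22), Klra7 (0.23), Il2rb (0.25), Ms4a6b (0.25) and Klra4 (0.26), against a median of 1.72 over the candidates. Of these, Klra18 and Ms4a6b were on none of the lists. Il2rb, the receptor chain through which interleukin 15 sustains NK cells, ranged over 50.5 to 186 in WT, 15.7 to 30.2 in Eμ-Myc and 3.55 to 88.9 in the knockout group.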

How the data were processed

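Polyadenylated RNA of 12 samples was made into libraries with a directional kit, per the labels. The deposited files, 1 for each library, give the authors' mean coverage of 24982 gene symbols, a signal with 1 decimal. DESeq, R 4.3.3 and the mm10 build are listed in the submitters' processing notes; the aligner, the annotation and the coverage step are not given in the sources used here. Since the values are not counts, no count model was used, and no counting interval or detection limit can be given.

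Libraries were scaled by unweighted trimmed means of log ratios (30% of ratios and 5% of means trimmed at each end). Genes that reached 1 in 4 or more of 8 libraries were tested two-sided on log2(scaled coverage + 0.5), which understates the change of low genes, with limma 3.58.1 in R 4.3.3 (trended prior, robust). A gene was called where p, adjusted by Benjamini and Hochberg's method across the genes tested, was under 0.05. The code was checked on simulated data. The members and the gene lists were chosen with earlier results of these data known. All members were named, with up to 4 called genes of each other list by smallest adjusted p in Eμ-Myc against WT, the 10 genes most like the members, fixed B and T cell markers, Prps2 and Myc. Naming Siglech, Klrg1, Ulbp1, Fcer2a, Cr2, Cd22, Serpinb9b, Vamp7, the 5 plasma cell markers and the granzymes at 0 went beyond this rule. These genes were named after their values were seen. Some genes that the rule names are not reported here. Positions and promoters came from RefSeq tables (10 and 9 members matched), handled with Python 3.11.15, pandas 2.3.3 and numpy 2.4.6; figures used matplotlib 3.10.9. Alternatives were other scalings, pseudocounts (0.1, 2), filters (none, 5), samples in the fit, a replicate block, library quality weights and leaving out each library.

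Replicate numbers were checked for pairing by correlating, across genes, how libraries with the same number deviated from the mean of their group. For the knockout group and Eμ-Myc r was 0.66, 0.19, 0.25 and 0.61. Each exceeded 0.1, and the numbers were treated as possible pairs there, from the values alone. The main fit still left them unpaired, and the replicate block was run as an alternative. The labels do not say that numbers pair samples, and for numbers 2 and 3 the best partner had another number (1 and 4). Whether the numbers are true pairs thus cannot be told.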

Additional observations from a re-analysis of the deposited data

How the results depend on the processing

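In Eμ-Myc against WT, the fold changes of all 10 members stayed below 0 under the 17 alternatives. The count called was 1 with all 12 libraries in the same fit, where 16.3% of all genes were called lower. With the replicate block it was 9 (25.8% of all genes), as Gzmb was lost at limma adjusted p = 0.0512. On leaving out each library it was 8 to 10 (19.7% to 24.4%). In the other alternatives it was 10 (18.2% to 33.3%). In the knockout group against Eμ-Myc the replicate block left 0 members and 1 gene called; the block changed no other call of a member. Library quality weights gave knockout libraries 1 to 4 weights of 0.0817, 0.129, 3.20 and 7.76. They called 7460 genes and 10 members, the members all lower, where 28.3% of all genes were called lower. They turned Gzmb to -1.14 and Eomes to -1.55. In the same comparison a pseudocount of 2 turned Prf1 to 0.15, Ncr1 to 0.13 and Tbx21 to 0.07, and total coverage scaling turned Ncr1 to 0.01. Leaving out each library gave -1.35 to 0.18 for Gzma, -0.41 to 0.96 for Gzmb, -0.82 to 0.60 for Prf1, -1.23 to 0.44 for Nkg7, -0.75 to 0.66 for Ncr1, -1.14 to 0.41 for Klrb1c, -1.20 to 0.18 for Klrd1, -0.58 to 0.86 for Eomes and -0.93 to 0.46 for Tbx21. In the knockout group against WT the genes called numbered 3716, against 5975 with all 12 libraries in the same fit, 1863 with the replicate block, 10505 with quality weights and 600 to 6633 on leaving out each library (6633 and 4134 without knockout 1 and 2, 706 and 642 without knockout 3 and 4, and 883, 610, 600 and 1256 without WT 1 to 4). Members called there were 5 with all 12 libraries in the same fit (19.9% of all genes called lower) and 10 with quality weights (41.2%). The count was 0 with the block (3.40%) and 0 to 9 on leaving out each library (0.247% to 23.5%). The cause of these changes was not tested. Same-numbered libraries correlated with r of 0.23, -0.10, 0.26 and 0.14 in Eμ-Myc and WT. In the knockout group and WT r was 0.40, -0.42, 0.14 and -0.06. In both cases not all r exceeded 0.1, so the numbers were not treated as pairs there. Depth is unknown, and the spread of 4 libraries sets the precision.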

Other observations

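The RefSeq window from Klrb1c to Klrk1 on chromosome 6 (128778485 to 129623903, 845 kb) was chosen after the members' values were seen. It held 21 tested genes, of which 11 were lower in Eμ-Myc than in WT, 1 was higher and 9 were not called by limma, where 24.7% of all genes were called lower. The 11 include Klrb1c, Klrd1 and Klrk1, which define the window. The lower ones also included Cd69, an early activation antigen of lymphocytes, at -2.08 (limma adjusted p = 0.00279). The higher gene was BC035044 at 1.00 (adjusted p = 0.00239). The 9 genes not called included Clec7a, which encodes the fungal glucan receptor dectin-1, at -1.32 (limma adjusted p = 0.0603). Clec12a at -0.59 (adjusted p = 0.19) and Clec2g at 0.86 (adjusted p = 0.114) were also among them. Clec7a was thus about as low as Klrb1f at -1.28, which was called.

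The ratio of Gzmb to Prf1 in scaled coverage was 0.359 to 0.704 in WT, 0.553 to 1.21 in Eμ-Myc and 0.758 to 1.75 in the knockout group, with the highest ratio in knockout library 3, where both genes were below 2. The ratio of Klrk1 to Klrd1 was 0.646 to 0.923 in WT and 0.745 to 1.35 in Eμ-Myc, with overlap between the groups. These ratios were not tested.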
